A study of Brassica oleracea with 15 samples.

Results

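Genes that encode beta-tubulin were followed across the hypocotyl flanks of Brassica oleracea seedlings that were bending towards light or against gravity. The 5 genes, TUB1, TUB5, TUB6, TUB7 and TUB9, are those members of the Arabidopsis beta-tubulin family that were the only gene named for a probe set of the ATH1 array. Each had 1 such probe set, so 5 of the 22810 probe sets of the array were followed. They were chosen by gene name, with earlier results of these data known. The hypocotyl is the seedling's stem between root and cotyledons. Wild-type, dark-grown seedlings of 3 days were lit from the side with blue light for 2 h, stimulated by gravity for 2 h, or only mock-treated, and the outer part of the hypocotyl was cut away from the vascular core. Total RNA was taken from pools of about 100 seedlings. There were 5 groups of 3 arrays: blue-lit seedlings gave a shaded and a lit flank, gravistimulated seedlings a bottom and a top flank, and mock-treated control seedlings a single group of left and right flanks. The groups were taken from the sample titles, since the protocol text of the lit samples names only shaded flanks and that of 2 bottom samples names shaded flanks in place of bottom ones.

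Beta-tubulin pairs with alpha-tubulin to form the dimers of which microtubules are built. In an elongating plant cell, microtubules below the plasma membrane guide the deposition of cellulose in the wall and so bear on the direction in which the cell grows. Plants carry several beta-tubulin genes that encode closely similar proteins. In Arabidopsis, TUB1 is known as a gene whose transcript is lowered by light in the hypocotyl. A bending hypocotyl grows faster on its shaded or bottom flank, here called the elongating flank, than on the opposite lit or top flank.

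All values are the Affymetrix signal on a linear scale, and as deposited the trimmed mean of every array is 500. Brassica RNA was hybridised to Arabidopsis probes, so the signals of different probe sets do not rank the amounts of their transcripts. Sequences of the family are alike and Brassica has its own copies of each gene, so a probe set may also take signal from other beta-tubulin transcripts. As brightness on this array, and not as transcript amount, their mean log2 signal stood at the 85.1 percentile for TUB5, 95.2 for TUB1, 98.7 for TUB6, 98.8 for TUB9 and 99.1 for TUB7. All 5 passed the filter on dim probe sets, which left 11373 tested. A difference was called where limma's adjusted p, taken over all of these, was below 0.05. With 3 arrays in a group, precision is limited by their number. No marker of vascular, epidermal or green tissue in the lists used had a probe set that named it alone, so the tissue of the sections was not checked against markers here. In tissue sections, fewer cells of a type and less RNA per cell cannot be told apart.

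TUB7 was the member for which a difference passed the test: its signal was 1.42-fold lower after blue light than after gravity stimulation. The lit flank arrays had TUB7 signals of 4795, 4443.4 and 4865.2, and the shaded flank arrays 5488.7, 5074.7 and 7220. The bottom flank arrays had 7191.1, 8697.3 and 8665.6, and the top flank arrays 5710.7, 8602.5 and 6496.1. The control arrays had 8152.9, 7869.3 and 7390.9. The lit flank was thus the lowest group and lay below every other array of the series, a pattern whose share over all probe sets was not counted. Of the blue light arrays, shaded flank replicate 3 alone reached into the range of the gravity arrays, and top flank replicate 1 was the lowest of the gravity arrays. The blue light arrays differed from the gravity arrays by a log2 value of -0.51 (SE 0.12, 95% interval -0.76 to -0.26, adjusted p = 0.0343, limma, 6 against 6 arrays). Both flanks of a stimulation came from seedlings stimulated alike, and no label says whether they share pools. The 6 arrays on each side may therefore not be 6 independent samples, while the test takes them as such.

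In the comparison of blue light with gravity 1 of 5 members, TUB7, was called, against 2.22% of all tested probe sets. At an unadjusted p below 0.05 there were 3 of 5 members, TUB1, TUB6 and TUB7, against 15.5%. TUB6 had a log2 difference of -0.57 (SE 0.18, adjusted p = 0.131) and TUB1 one of -0.51 (SE 0.18, adjusted p = 0.176). TUB5, at -0.17, and TUB9, at -0.21, had intervals that include 0 (-0.51 to 0.16 and -0.51 to 0.08). All 5 estimates were below 0, with a median of -0.51, while the median over all tested probe sets was 0.01. TUB6 had the largest estimate and did not pass, and TUB7 passed with a smaller one. The SD of TUB7 within groups was 0.20 on the log2 scale, lower than in all but 9.53% of tested probe sets, and that of TUB6 was 0.37. The members are not independent, since they were read from the same arrays. The difference itself takes no control array, while the control arrays enter the estimate of the spread. Neither dates nor seed lots are labelled, so a batch effect and the stimulation cannot be told apart. The call of TUB7 was lost under quantile normalization (log2 difference -0.37, adjusted p = 0.0916), without the filter on dim probe sets (0.0596), with a variance model that has no intensity trend (0.106), and with only the 12 stimulated arrays in the fit (0.0577). It was also lost on leaving out any 1 of 9 arrays, with adjusted p from 0.0581 to 0.0833: shaded flank replicates 1 and 2, lit flank replicates 1, 2 and 3, bottom flank replicates 2 and 3, and top flank replicates 2 and 3.

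**Figure D1:**
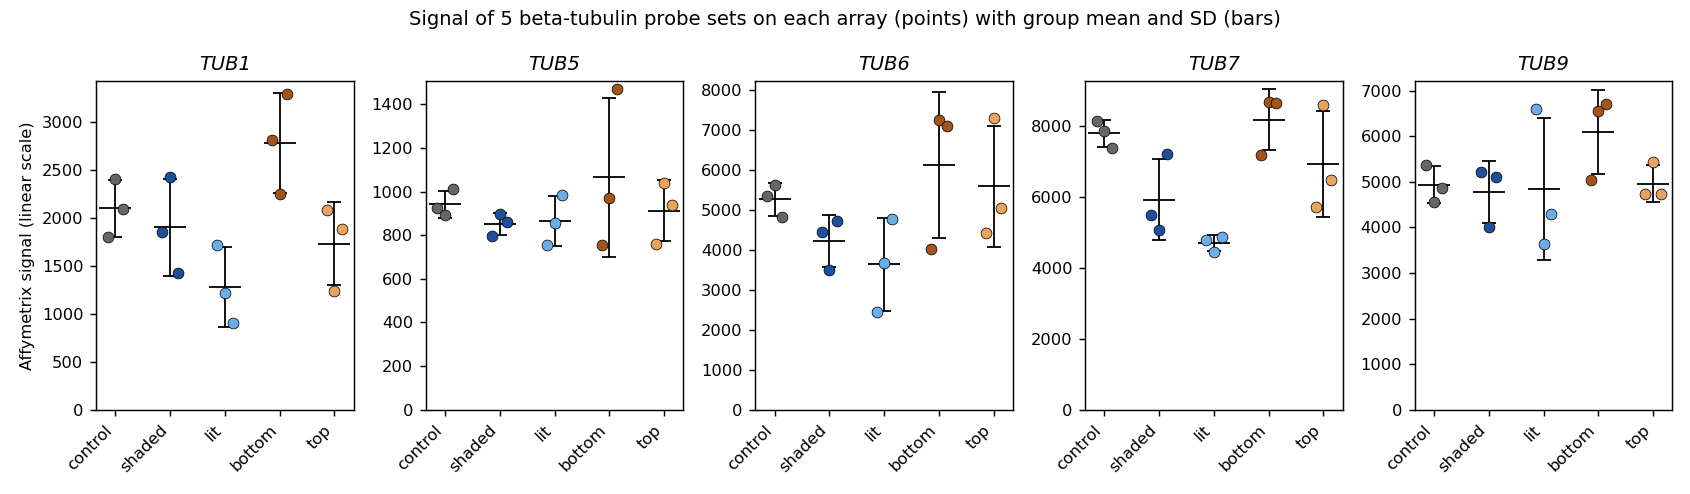
Each panel plots the linear Affymetrix signal of 1 gene's probe set (vertical axis, from 0) in the 5 groups (horizontal axis). Points are arrays, the wide bar is the mean of 3 arrays and the whiskers are 1 SD. The 3 lit flank arrays of TUB7 sit between 4443.4 and 4865.2, below all other TUB7 points (share over all probe sets not counted). The groups of TUB5 and TUB9 overlap throughout.

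Values that moved beside this difference were read on the same arrays. For 3 control transcripts, the log2 signal of the 3 prime minus the 5 prime probe set was taken as a reading of the length of the labelled RNA. These are Arabidopsis probes too, so mismatch with Brassica RNA may also enter the value. The mean of this log2 value was -0.29 ± 0.18 (SD, n = 3) for shaded, -0.34 ± 0.14 for lit, -0.14 ± 0.11 for bottom, -0.21 ± 0.12 for top and 0.06 ± 0.30 for control arrays. The 1138 probe sets of the brightest 5% had a median log2 difference of -0.09 between blue light and gravity. The part of RNA length in the TUB7 difference was not tested.

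TUB7 was also set against the control in each stimulation. The mean signal was 7804 ± 385 (SD, n = 3) in the control, 5928 ± 1138 in the shaded, 4701 ± 226 in the lit, 8185 ± 861 for bottom arrays and 6936 ± 1495 for top arrays. In the lit flank the log2 difference from the control was -0.73 (SE 0.17, 95% interval -1.09 to -0.38), which did not pass over all probe sets (adjusted p = 0.0705). It did pass with array weights (adjusted p = 0.0443), among the brightest 30% of probe sets (0.0497) and without top flank replicate 2 (0.0457), and its adjusted p reached 0.224 without control replicate 1. Under quantile normalization the estimate was -0.48 (adjusted p = 0.219). The shaded flank differed from the control by -0.41 (-0.77 to -0.06, adjusted p = 0.595), and by -0.22 under quantile normalization (adjusted p = 0.861). For the bottom flank the value was 0.06 (-0.29 to 0.42) and for the top flank -0.19 (-0.55 to 0.17). In order of level the groups stood as bottom, control, top, shaded and lit, and of neighbouring groups in that order shaded and lit alone did not overlap.

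TUB6 had the same lowest groups as TUB7 but a wider spread. Its signals were 2444.3, 3674.1 and 4778.9 in the lit flank and 4453.9, 3486.2 and 4707 in the shaded flank. The bottom flank had 4013, 7239.5 and 7100 and the top flank 4407.2, 7290.4 and 5051.4. The control arrays had 5348.2, 5612.9 and 4809.7. Every blue light array of TUB6 therefore lay below every control array, as was also so for TUB7, while both gravity flanks of TUB6 spanned the control range. The share of all probe sets with both blue light flanks below the control was not counted. For each flank alone it was 9.08% (lit) and 7.04% (shaded). The log2 difference from the control was -0.46 (SE 0.22) after blue light (adjusted p = 0.509; -0.27 under quantile normalization) and 0.11 (SE 0.22) after gravity stimulation (adjusted p = 0.891; 0.19 under quantile normalization). In the lit flank alone the TUB6 estimate was -0.58 (adjusted p = 0.416), with -0.38 under quantile normalization and -0.32 without lit replicate 1. The order of levels was bottom, top, control, shaded and lit, in which the control and the shaded flank were the neighbours without overlap. The 3 lit values span a wide range, with an SD of 1168 around a mean of 3632.

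TUB1, the light-lowered gene of Arabidopsis, gave the largest flank differences among the 5 members. The bottom flank arrays had signals of 2809.3, 2247.8 and 3292.7 and the top flank arrays 2078, 1240.7 and 1880.4. The shaded flank arrays had 1850.9, 2430.3 and 1424.1 and the lit flank arrays 1722.2, 1220.3 and 901.9. In the control they were 1800.3, 2403.9 and 2093.5. Every bottom array was above every top array, and shaded and lit overlapped between 1424.1 and 1722.2. Over both stimulations TUB1 was 1.56-fold higher in the elongating flanks, a log2 difference of 0.64 (SE 0.18, 95% interval 0.26 to 1.03) that did not pass over all probe sets (adjusted p = 0.22). The flank difference was 0.59 (0.04 to 1.13) after blue light and 0.70 (0.15 to 1.25) after gravity stimulation. Without lit replicate 3 the TUB1 value after blue light was 0.36. The test of whether these differ gave -0.11 (SE 0.37, 95% interval -0.89 to 0.66), so a dependence on the stimulation smaller than that interval could not be seen. In the lit flank TUB1 was -0.75 below the control on the log2 scale (-1.30 to -0.20, adjusted p = 0.244), and all 3 lit arrays were below all 3 control arrays. Its order of levels was bottom, control, shaded, top and lit, with overlap between all neighbours.

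No comparison of TUB9 passed the test. Its lit flank signals were 6599.7, 3634.9 and 4298.9, so that lit replicate 1 was close to the highest value of the series and lit replicate 2 was the lowest of all. The shaded flank had 5211.7, 3999.8 and 5108.5, the bottom flank 5033.2, 6552.1 and 6706.4, the top flank 4731.9, 5425.5 and 4722.2, and the control 5377.4, 4565.9 and 4864.8. All neighbours in the order bottom, top, control, shaded and lit overlapped. The largest estimate among the comparisons made was -0.35 for shaded minus bottom (-0.77 to 0.06, adjusted p = 0.551). The largest flank estimate of TUB9 was 0.29 between bottom and top (-0.13 to 0.70, adjusted p = 0.794), and between shaded and lit it was 0.02 (-0.40 to 0.43), which turned to -0.06 under quantile normalization.

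TUB5 had signals between 756.1 and 1468.8. The shaded flank had 795.2, 897.1 and 859.6, the lit flank 756.7, 854.6 and 983.7, the top flank 761.4, 1037.7 and 939.8, and the control 925.2, 891.5 and 1012. The bottom flank held both the lowest and the highest array of the series, with 756.1, 968.9 and 1468.8. No neighbours in the order bottom, control, top, lit and shaded were apart. The flank difference over both stimulations was 0.08 on the log2 scale (95% interval -0.25 to 0.41, adjusted p = 0.93), so differences up to the ends of that interval could not be seen.

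The first question put to all 5 genes was whether the 5 groups differed at all, by limma's F test. None of 5 members passed, against 1.29% of tested probe sets, and at an unadjusted p below 0.05 there were 2 of 5, TUB1 and TUB7, against 13.8%. TUB7 had an F of 7.45 (adjusted p = 0.0648) and TUB1 an F of 5.28 (adjusted p = 0.145). For TUB6, TUB9 and TUB5 the adjusted p was 0.377, 0.709 and 0.894. TUB7 passed among the brightest 30% of probe sets and without shaded flank replicate 3 or top flank replicate 2.

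**Figure D2:**
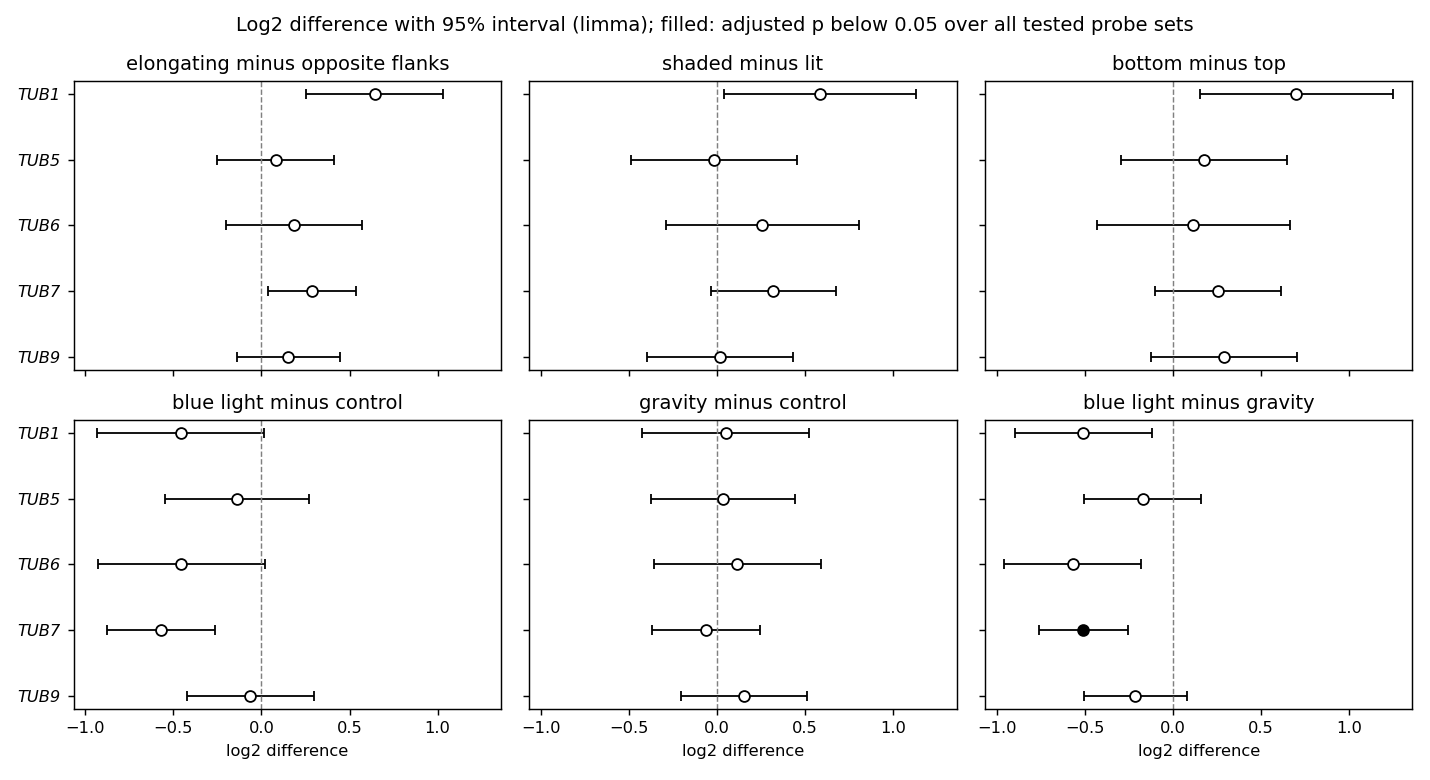
Each panel plots the log2 difference of the 5 genes (horizontal axis) in 1 comparison, with its 95% interval as a bar. Filled points passed the adjusted threshold of 0.05 over all tested probe sets. The filled point is TUB7 in blue light minus gravity, at -0.51, and all 5 points of that panel and of blue light minus control lie left of 0, though TUB9 in the latter turned to 0.11 under quantile normalization.

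The elongating flanks were then compared with the opposite flanks over both stimulations. The estimates of all 5 members were above 0, and their median was 0.19 on the log2 scale where the median of all tested probe sets was 0.00, and 0 of 5 passed (0.237% of all). Without bottom replicate 3 the TUB5 estimate was -0.05. At an unadjusted p below 0.05 there were 2 of 5, TUB1 and TUB7, against 8.63%. TUB7 had a difference of 0.29 (SE 0.12, adjusted p = 0.492), TUB6 one of 0.19 and TUB9 one of 0.15. Between shaded and lit flank 0 of 5 members passed, as did 0% of all probe sets, and 1 of 5 (TUB1) did so without adjustment against 5.26%. TUB7 was the 1 member of 5 with every shaded array above every lit array, a pattern held by 5.52% of probe sets. Between bottom and top flank 0 of 5 passed (0.0352% of all) and 1 of 5, again TUB1, did so without adjustment against 7.49%. TUB1 was the 1 member with every bottom array above every top array, against 6.25%. In the test for a flank difference that depends on the stimulation, 0 of 5 members passed with adjustment (0% of all) and 0 of 5 without (3.37%), and the estimates ran from -0.27 for TUB9 to 0.14 for TUB6.

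Against the control, all 5 members had lower estimates after blue light, with a median log2 difference of -0.46 beside a median of 0.00 for all probe sets and of -0.17 for the brightest 5%. Under quantile normalization 4 of 5 were below 0: TUB9 turned from -0.06 to 0.11, while TUB7 went from -0.57 to -0.35 (adjusted p = 0.385). Of the 5 members 0 passed (0.22% of all), and 1 of 5 (TUB7, at -0.57, adjusted p = 0.11) had an unadjusted p below 0.05 against 10.3%. The 0.22% are 25 probe sets, which became 1 without control replicate 1, 3 without control replicate 2 and 61 without control replicate 3. In the lit flank alone 0 of 5 passed (0.361%) and 3 of 5 (TUB1, TUB6 and TUB7) did so without adjustment, against 11%. The same 3 had every lit array below every control array, a pattern shown by 9.08% of probe sets. TUB9, at -0.07 in the lit and -0.06 in the shaded flank, turned to 0.14 and 0.08 under quantile normalization. The brightest 5% of probe sets had a median of -0.20 in this comparison. In the shaded flank 0 of 5 passed (0.00879%), 1 of 5 did so without adjustment (TUB7, against 7.4%), and 2 of 5 (TUB6 and TUB7) had every array below every control array, against 7.04%.

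After gravity stimulation no member passed against the control. As a mean over both flanks the log2 differences ran from -0.06 for TUB7 to 0.15 for TUB9, with a median of 0.05, and 0 of 5 passed with adjustment (0.73% of all) or without (12.6%). For TUB7 the 95% interval was -0.37 to 0.25 (estimate 0.02 under quantile normalization) and for TUB1 -0.43 to 0.52. In the bottom flank 0 of 5 passed (0.431%, and 11.2% of all without adjustment, again 0 of 5), with all 5 estimates above 0 and the largest 0.40 for TUB1 (95% interval -0.15 to 0.95). The TUB5 estimate there went down to -0.14 on leaving out 1 array. In the top flank 0 of 5 passed (0.853%, and 11.5% without adjustment, 0 of 5), with estimates from -0.30 for TUB1 to 0.06 for TUB6. The comparisons with the control share the same 3 control arrays and are not independent of each other.

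Flanks of like growth were also set against each other between the stimulations. Between the elongating flanks, shaded minus bottom, 0 of 5 members passed (0.29%) and 2 of 5 (TUB1 and TUB7) did so without adjustment against 10.9%, with log2 differences of -0.57 (-0.37 without shaded replicate 3) and -0.48. Between the slower growing flanks, lit minus top, 0 of 5 passed (0.0879%) and 2 of 5 (TUB6 and TUB7) did so without adjustment against 9.86%, with -0.64 (-0.38 without lit replicate 1) and -0.54. TUB7 was the 1 member whose lit arrays were all below its top arrays, which held for 7.81% of probe sets. All 5 estimates were below 0 in both comparisons, though TUB9 between lit and top turned from -0.08 to 0.02 under quantile normalization. On leaving out 1 array, the estimates between lit and top reached 0.02 for TUB5 and 0.11 for TUB9.

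**Figure D3:**
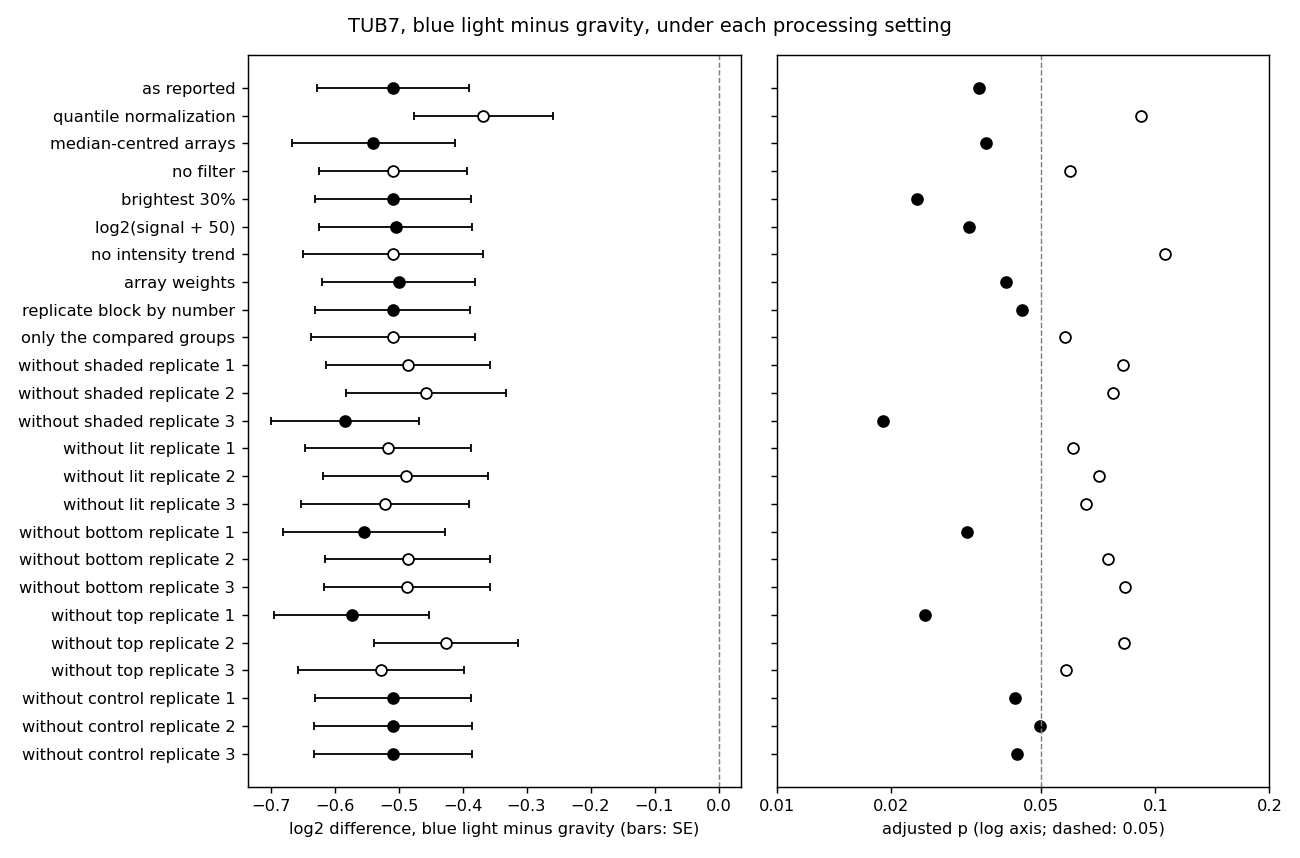
The left panel plots the log2 difference of TUB7 between blue light and gravity with its SE, and the right panel its adjusted p on a log axis, for the reported fit and 24 other settings (rows). Filled points passed 0.05. The estimate stayed between -0.58 and -0.37 and the adjusted p between 0.0191 and 0.106, on both sides of the threshold.

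Genes that work with beta-tubulin were sparsely named on the array. None of the 4 other beta-tubulin genes and 2 of the 6 alpha-tubulin genes, TUA1 and TUA6, had a probe set naming them alone. TUA6 had mean signals of 6446 ± 1244 (SD, n = 3) in the control, 5019 ± 1279 in the shaded, 3854 ± 263 in the lit, 5514 ± 607 for bottom arrays and 4796 ± 622 for top arrays. Its lit arrays, 3684.3 to 4156.5, were all below its control arrays, 5377.4 to 7812.5. The log2 difference of TUA6 was -0.55 (SE 0.16, adjusted p = 0.174) between blue light and control and -0.24 (SE 0.13, adjusted p = 0.41) between blue light and gravity. TUA1 had 0.32 and 0.11 in the same comparisons (adjusted p = 0.756 and 0.858), so the 2 alpha-tubulin genes lay on opposite sides of 0 and neither passed.

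Of 12 genes of tubulin folding and microtubule nucleation, 2 were tested and 0 passed in the 6 comparisons of the difference plot. PFI, a tubulin folding cofactor gene, had 0.29 and TON1B, of the cortical array, 0.07 on the log2 scale between blue light and gravity. Of 30 genes for microtubule-associated proteins and motors, 3 were tested and 0 passed. SPR1, whose protein tracks growing microtubule ends, had a log2 difference of 0.42 between blue light and gravity (adjusted p = 0.306), opposite in sign to the 5 beta-tubulins, and -0.61 between shaded and lit flank (adjusted p = 0.927). Its relatives SP1L5 and SP1L2 had -0.43 and -0.22 between blue light and gravity. Of 8 actins 1 was tested, ACT11, with 0.68 (SE 0.19, adjusted p = 0.206) between elongating and opposite flanks and -0.01 between blue light and gravity. Of 9 genes of primary wall cellulose synthesis 1 was tested, COB, which encodes a wall protein needed for oriented cell expansion, with 0.34 (adjusted p = 0.684) between elongating and opposite flanks and -0.25 between blue light and gravity.

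Across the 15 arrays the 5 members did not vary as 1 group. TUB6 and TUB7 were the closest pair, at r = 0.809 (Pearson) and rho = 0.868 (Spearman) of log2 signal, and r was 0.782 without the 2 arrays farthest from the median of TUB6. TUB5 and TUB6 had an r of 0.686. These 2 pairs kept an r of 0.67 and 0.674 when each array was taken as its deviation from its group mean. TUB1 had an r of 0.428 with TUB7 and 0.124 with TUB6. The values share arrays and scaling and are given as a description, without a test.

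**Figure D4:**
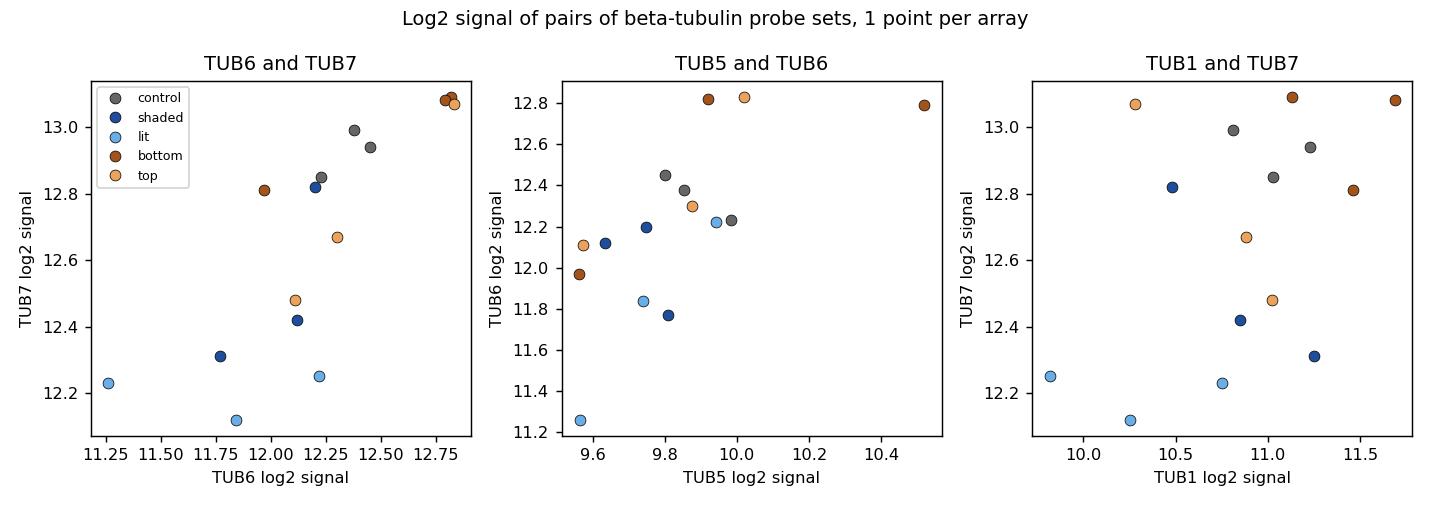
Each panel plots the log2 signal of a pair of beta-tubulin probe sets against each other, with 1 point per array coloured by group. In the panel of TUB6 and TUB7 (r = 0.809) the points rise together and the lit flank arrays lie at the low end of TUB7. In the panel of TUB1 and TUB7 (r = 0.428) they are scattered.

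Among 6239 other genes, those most like each member in log2 signal over the 15 arrays were found by Pearson r. For TUB7 these were AT3G62360 (0.892), the ubiquitin-conjugating enzyme gene UBC28 (0.873) and AT2G39960 (0.863). For TUB6 they were AT4G29120 (0.877), AT4G29890 (0.833) and AT1G53050 (0.817). TUB1 was most like AT3G04830 (0.862), XTH18, a xyloglucan endotransglucosylase/hydrolase gene of the cell wall (0.811), and AT4G32680 (0.801). For TUB9 the genes were AT3G05280 (0.886), AT1G26160 (0.852) and AT3G06035 (0.833), and for TUB5 AT3G10540 (0.858), AT5G10900 (0.798) and AT2G33410 (0.794). No other member was among the 3 genes nearest to any member. The 4 other beta-tubulin genes could not appear, since no probe set names them alone. Each list holds the highest of 6239 values of r, so high values come with the selection, and no test was made.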

How the data were processed

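Gene expression was measured on 15 ATH1 arrays. Each probe set has a deposited intensity. Per the submitters' processing notes the authors used GCOS 3.0, with settings not given in the sources used here. Genes were named from the array's annotation, in which 13513 probe sets carry a single symbol, 503 several and 8794 are unlisted. The 1 value at or below 0 was set to 0.4, log2 was taken, the array's 64 control features were dropped, and probe sets with a mean log2 signal of at least the median, 8.28, were kept. Limma 3.58.1 in R 4.3.3 fitted 5 group means to all arrays (10 residual degrees of freedom, eBayes with an intensity trend), with Benjamini-Hochberg adjustment over all 11373 probe sets within a comparison, and the fit was tested on simulated data. For the simulated size of change recovered less often, it found 62 of 100 in blue light against gravity and 40 of 100 in lit flank against control. For the other size it found 100 and 89 of 100. Neither size is stated here, so recovery at the size of the member differences is not known from these counts. False calls were 12 and 8. Where labels do not say that pools were grown apart, p-values measure the spread between these samples. The members, lists, comparisons and alternatives were chosen with earlier results of these data known. Named were all members, all tested list genes and, for likeness, the 3 genes of highest r per member. Of 124 listed symbols for 102 genes, 11 matched a named probe set; FDH was left out, since the symbol there belongs to a gene on another chromosome. The medians of the brightest 5% and the correlations among members were added after the values were seen. At most 0.088% of values coincided between any pair of arrays, so no array was a copy of another. No probe or gene sequence and no coordinates were used here.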

Additional observations from a re-analysis of the deposited data

Results flagged for a closer look

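TUB7 differed between the stimulations: its log2 difference from the control was -0.57 after blue light and -0.06 after gravity stimulation (-0.35 and 0.02 under quantile normalization), and the test of blue light against gravity gave -0.51 (adjusted p = 0.0343, limma; range over 24 other settings 0.0191 to 0.106). The lit and the shaded flank each had a lower mean than either gravity flank. No test for outlying arrays was made within the groups of 3, but each array was left out in turn.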

How the results depend on the processing

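The 65 differences of 5 members in 13 comparisons were recomputed under up to 25 other settings, 1580 values in all. None of those that were called or exceeded their SE changed sign, 13 calls were lost and 4 gained. Of smaller estimates, 6 of the 65 differed in sign under quantile normalization, 5 of TUB9 and 1 of TUB7. On leaving out 1 array, each of the 5 members had small estimates that changed sign. TUB1 after gravity stimulation against the control, for example, went from 0.05 down to -0.06, and TUB6 between bottom and top from 0.12 down to -0.04. The number of members called in blue light against gravity, 1 as reported, was 0 under quantile normalization, without the filter, without the intensity trend and with only the compared groups. On leaving out 1 array it ran from 0 to 2, with 2 (TUB6 and TUB7) without bottom flank replicate 1, where TUB6 had -0.71 (adjusted p = 0.0419). In the lit flank against the control the number was 1, against 0 as reported, among the brightest 30% and with array weights, and 0 to 1 on leaving out 1 array. In the F test it was 1 among the brightest 30%, and 0 to 1 on leaving out 1 array. The cause was not tested, except that the settings without the filter and with the brightest 30% change the number of probe sets in the adjustment. Over all genes, the count of 253 probe sets called in blue light against gravity became 145 without the filter and 106 without the trend. On leaving out 1 array the count was 132 to 252. Over both stimulations the flank count of 27 was 5 to 29 on leaving out 1 array, 15 without the filter, 4 without the trend and 19 with the number as a replicate block. After blue light against the control the count of 25 was 1 to 61, 11 without the filter, 9 without the trend, 57 among the brightest 30% and 60 with array weights. In the lit flank against the control the count of 41 became 77 among the brightest 30% and 93 with array weights. Same-numbered arrays of different groups had deviations from their group means that correlated with r from -0.08 to 0.15 (median 0.00). Opposite flanks of a stimulation had -0.02 to 0.15 (median 0.05) for the same number and -0.12 to 0.06 (median -0.02) for different numbers. No label says that a number marks shared seedlings, and not every pair exceeded 0.1. That limit cannot show that the samples were unpaired. The numbers were not taken to pair samples, and fits with a replicate block are given beside. With the number as a replicate block TUB7 had an adjusted p = 0.0444 in blue light against gravity, and 1 member was called there and 0 elsewhere, while the count over all probe sets went from 25 to 11 in blue light against the control and from 41 to 22 in the lit flank against the control. Blocking on number within each stimulation (a replicate block again), 0 members were called in the flank comparisons, where the number of probe sets called rose from 27 to 45 over both stimulations and from 4 to 17 after gravity stimulation. TUB1 had an adjusted p = 0.095 there over both stimulations. Of 6 same-numbered pairs, the elongating flank was higher in 6 for TUB1 and TUB7, 5 for TUB9, 3 for TUB5 and 2 for TUB6. These pairs rest on numbers not taken to pair samples, and the share over all probe sets was not counted.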

Other observations

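Within groups, TUB1 varied against TUB6 and TUB7. As deviations from group means over the 15 arrays, TUB1 had a Pearson r of -0.709 with TUB6 and -0.647 with TUB7, while TUB5, TUB6 and TUB7 had positive values with each other (0.456 to 0.674). These 15 deviations share array, scaling and group means, and no test was made.

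TUB6 and TUB9 had an r of 0.304 over all arrays and 0.835 without the 2 arrays farthest from the median of TUB6. Of TUB9, lit flank replicate 1 had a signal of 6599.7, while that array had the lowest TUB6 signal of the series, 2444.3.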
